A study of Mus musculus with 4 samples.

Results

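Cholinergic-marker spots outside the striatum were examined in spatial transcriptomes of the mouse brain. A spot is a small capture area of the array that can hold several cells of different types, or parts of them. Spots with at least 500 counts were kept. The log-transformed level of each of 7 marker genes, per 10000 counts of its spot, was put on a z scale over all kept spots. A spot was a member where its mean z over Lhx8, Ngfr, Slc18a3 and Slc5a7, the cholinergic score, was at least 1.2 and its mean z over Ppp1r1b, Rgs9 and Pde10a, the striatal score, was below 0.8. This rule took 505 of 12601 kept spots, or 4.01%. The levels of the 7 marker genes chose the spots and are given only as a description.

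The sections came from 4 mice, 2 labelled wild type and 2 labelled Celsr3 heterozygous, with no treatment. Brains were trimmed so that the striatum showed, fixed in formalin and embedded in paraffin, and coronal sections were run on the 10X Genomics Visium CytAssist assay for FFPE tissue, version 2. Celsr3 encodes a cadherin-family receptor of axon growth, and the series concerns tic-related behavior and striatal dopamine. The strain, age and sex of the mice and the kind of Celsr3 allele are not given in the sources used here. Spot names end in a number from 1 to 4, which gives 4 barcode sets, and no label ties a set to a mouse. No comparison of the genotypes was therefore made, the sets were not treated as replicates, and each value below is given for each set alone, with no SD and no p-value.

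Cholinergic neurons of the basal forebrain lie in the medial septum, the diagonal band, the substantia innominata and the basal nucleus, and send axons to the cortex, hippocampus and amygdala. They make acetylcholine with choline acetyltransferase, load it into vesicles with a transporter encoded by Slc18a3 and take choline back up with a transporter encoded by Slc5a7. They arise from embryonic progenitors that express Nkx2-1, use the LIM homeobox factors Lhx8 and Isl1, and keep the neurotrophin receptor encoded by Ngfr in the adult. Striatal cholinergic interneurons share most of this program but have little Ngfr in the adult.

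Members made up 114 of 3055 kept spots in set 1, a share of 3.73% with an exact Clopper-Pearson interval of 3.09% to 4.47%. Set 2 had 124 of 2808, a share of 4.42% (3.69% to 5.24%). Set 3 had the lowest share, 117 of 3444 or 3.40% (2.82% to 4.06%). Set 4 had the highest, 150 of 3294 or 4.55% (3.87% to 5.32%). The 4 intervals overlapped, and all intervals here are at 95% and cover counting error only. Members held 4809332, 4931248, 4343854 and 3326944 counts in sets 1 to 4. The median count per member was 41645, 37247, 34500 and 19964, below the median of the other spots of the same set, which was 53093, 38252, 45448 and 26805. The 505 members carried 455 distinct barcodes, of which 48 were members in 2 sets and 1 in 3 sets. A barcode stands for a position on the array, so a shared barcode does not mean a shared spot.

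All 4 cholinergic markers were detected in 243 members, 3 in 177, 2 in 73 and 1 in 12. The 12 members that passed on a single marker came from sets 2 and 4, with 7 and 5 spots. The cholinergic score of members ran from 1.2 to 8.60 with a median of 2.47. There were 74 members just inside the threshold, at scores of 1.2 to 1.4, and 93 spots just outside it, at 1.0 to 1.2. Chat stood at 27.2, 11.3, 20.1 and 34.0 CPM, counts per 1000000, just inside in sets 1 to 4 and at 25.6, 14.1, 19.7 and 8.71 CPM just outside. Both bands were below the level of all members together, given below, in every set, and they overlapped each other.

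Set 4 held 3 members that went against the label of a basal forebrain zone. Pou4f1, Chrnb3, Chrnb4, Chrna3, Gpr151 and Gng8, 6 genes of the medial habenula chosen after values were seen, together reached at least 5 per 10000 counts in them, as they did in 11 kept spots of set 4 and in 0 of the other sets. The medial habenula is a small nucleus above the thalamus with cholinergic neurons of its own. Pou4f1, its defining transcription factor, had 79 counts in the 3 spots, or 727 CPM, and 3 counts in all other members of set 4. Chat had 9 counts there (82.8 CPM) and Slc18a3 15, while Lhx8 had 0. Without the 3 spots the share of members in set 4 was 4.47%, and results below that rest on them are given with and without them.

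Each marker was next read in spots chosen by the other 3 markers alone, with the striatal limit kept. Ngfr, the low-affinity neurotrophin receptor, was 62.9-fold (53.3 to 74.3), 53.1-fold (46.3 to 61.0), 62.9-fold (54.6 to 72.5) and 55.8-fold (49.9 to 62.5) above all other spots in sets 1 to 4. Slc18a3 was 30.1-fold, 9.09-fold, 22.7-fold and 24.0-fold above, and Slc5a7 25.6-fold, 10.7-fold, 21.4-fold and 19.8-fold. Lhx8 was 15.1-fold, 8.79-fold, 17.6-fold and 16.5-fold above. The ratios of all 4 markers were lowest in set 2. In the spots chosen without it, Slc5a7 rested on 105 counts in set 2 and on 94 in set 4.

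The leading gene outside the rule was Chat, which encodes choline acetyltransferase, the enzyme that makes acetylcholine. Its level in members was 87.7, 62.9, 93.7 and 102 CPM, against 3.72, 6.19, 4.03 and 3.52 CPM in the other spots. The ratio was 23.6 (20.8 to 26.7), 10.2 (8.85 to 11.7), 23.3 (20.5 to 26.4) and 28.9 (24.7 to 33.9). The levels of the sets, each a sum over spots, did not overlap between members and other spots, and the ratio was lowest in set 2. The label of a basal forebrain cholinergic zone was set against Chat, Nkx2-1 and Lhx6, which the rule did not use and which were all at least 2-fold higher than in all other spots in every set. These genes do not all set the members apart from hypothalamic spots, since Nkx2-1 in set 2 was at 0.729 (0.629 to 0.844) times its level in spots with hypothalamic markers. Lhx6 did not rise with Chat over the sub-clusters of the members, described below. Against spots with both scores high, described below, Chat had ratios of 0.824 to 1.73, with the interval above 1 in set 3 only. Other factors of the same list, such as Isl1, did not reach 2-fold in every set, and Gbx2 went the other way in sets 1 and 4. Zic1 was close to the other spots in sets 1 and 3, with ratios just below 1. The median log2 difference of the list was −0.12, 1.06, 0.75 and 0.11 in sets 1 to 4. Spot positions were not analysed here, so the place of the spots in the section was not checked. At least 1 Chat count was found in 100 of 114, 84 of 124, 95 of 117 and 104 of 150 members, with up to 46 counts in a spot.

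In RefSeq's annotation Slc18a3 lies within Chat, an arrangement known as the cholinergic gene locus. Where the probes of each gene lie is not given in the sources used here, so whether counts of 1 gene include transcripts of the other was not tested. Counts in members were 422 for Chat and 731 for Slc18a3 in set 1, 310 and 415 in set 2, 407 and 573 in set 3, and 339 and 412 in set 4. When Slc18a3 was dropped from the score, the median log2 difference of Chat over the sets was 4.14, against 4.23 with it. The 250 bases before the start of each of the 2 genes are shown because the 2 products stood high in the same spots (RefSeq, GRCm38.p6, written 5′ to 3′ on the gene's strand).

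Chat (chr14:32465910-32466159, minus strand): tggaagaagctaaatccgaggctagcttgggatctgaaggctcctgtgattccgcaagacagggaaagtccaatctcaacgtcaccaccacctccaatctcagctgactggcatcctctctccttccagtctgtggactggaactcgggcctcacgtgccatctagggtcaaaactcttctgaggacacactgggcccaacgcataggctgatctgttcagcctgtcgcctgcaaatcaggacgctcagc

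Slc18a3 (chr14:32464851-32465100, minus strand): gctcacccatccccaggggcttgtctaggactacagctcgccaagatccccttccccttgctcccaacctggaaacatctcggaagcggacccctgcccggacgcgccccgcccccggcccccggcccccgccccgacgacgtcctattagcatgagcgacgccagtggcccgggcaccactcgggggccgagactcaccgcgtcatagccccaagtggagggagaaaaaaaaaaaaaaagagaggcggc

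Neither window holds TAATTA, the core letters of many LIM homeodomain sites, searched on both strands. Among the 65 genes at least 2-fold higher in members in every set, described next, 51 had a promoter window in the table, and 1 of the 51, or 1.96%, held these letters. Over all genes of the count table with a window, 769 of 15061, or 5.11%, held them. Both counts are for the full promoter sequence of a gene, before it was cut to the 250 bases shown here. The gene was Adarb2, which encodes an RNA-editing family protein of interneurons and is shown here with the match in capitals, named after its values were seen. A match of letters is no binding site.

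Adarb2 (chr13:8202616-8202865, plus strand): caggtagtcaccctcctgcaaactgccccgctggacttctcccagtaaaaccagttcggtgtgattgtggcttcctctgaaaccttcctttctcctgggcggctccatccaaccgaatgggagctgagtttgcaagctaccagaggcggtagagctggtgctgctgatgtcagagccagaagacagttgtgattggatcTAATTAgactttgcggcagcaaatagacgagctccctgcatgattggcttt

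Adarb2 stood at 60.9, 67.7, 64.9 and 66.7 CPM in members and at 23.1, 22.5, 19.2 and 25.6 CPM in the other spots.

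Members were compared with all other kept spots of their set. The comparison took in the 10191 genes whose mean level reached 10 CPM, of which 65 (0.638%) were at least 2-fold higher in members in every set and 318 (3.12%) were at least 2-fold lower, on the scale of log2(CPM + 1). In single sets, 156 (1.53%), 314 (3.08%), 252 (2.47%) and 222 (2.18%) genes were higher, and 478 (4.69%), 550 (5.4%), 493 (4.84%) and 428 (4.2%) were lower. Without the 3 habenula-rich spots, 69 genes were higher and 329 lower in every set, 64 and 316 of them among the 65 and 318. Since the spots were chosen by their own levels, these counts are a description with no test. A level is a sum over spots, so a higher level cannot be told apart between more cells of a type and more RNA per cell.

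**Figure D1:**
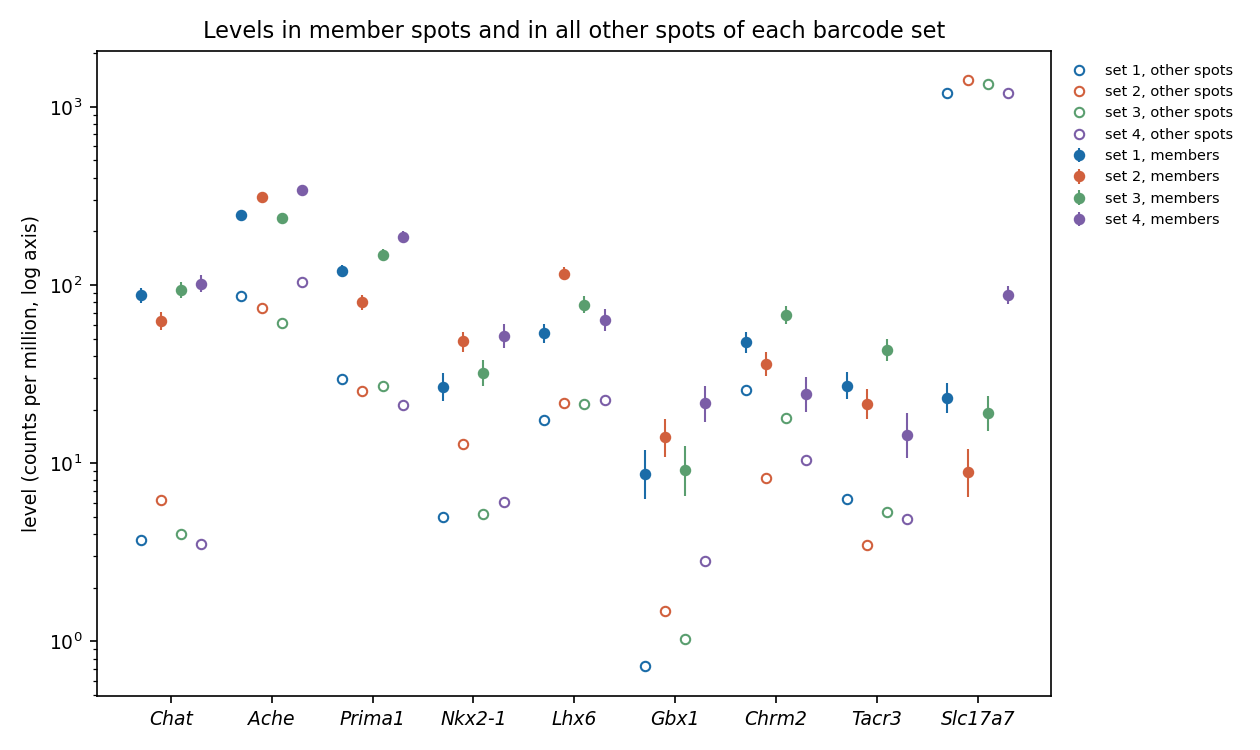
Levels of 9 genes that the rule did not use, in CPM on a log axis, in member spots (filled) and in all other spots (open) of the 4 barcode sets, with exact Poisson 95% intervals for members. Chat, Ache, Prima1, Nkx2-1, Lhx6, Gbx1, Chrm2 and Tacr3 lie higher in members in every set, and Slc17a7 lies lower.

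Genes of acetylcholine handling stood high beside Chat. Ache, which encodes the enzyme that breaks acetylcholine down, was at 248, 311, 238 and 342 CPM in members and 86.9, 74.3, 61.5 and 104 in the other spots. Prima1, which anchors that enzyme to the membrane, was at 119.8, 79.9, 147 and 187 CPM against 29.6, 25.3, 27.2 and 21.2. The summed levels of the sets did not overlap between members and other spots in either gene. The list of acetylcholine handling had 7 genes at a mean level of 1 CPM or more. Chat, Ache and Prima1 were at least 2-fold higher in every set and 0 were lower, where 83 (0.603%) and 380 (2.76%) of all 13768 genes at this filter were. The median log2 difference of the 7 genes was 0.80, beside 0.03 over all genes. Every list count below is at this filter and is read beside 0.603% and 2.76% of all genes.

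The other 4 genes of acetylcholine handling showed smaller differences. Bche, an esterase found mainly in glia and serum, was 1.69-fold, 1.53-fold, 2.09-fold and 2.70-fold higher in sets 1 to 4. Slc44a1, a choline transporter of many cell types, was 1.68-fold, 1.16-fold, 1.25-fold and 1.81-fold higher. Chka, a choline kinase of phospholipid synthesis, was at 53.9, 51.9, 66.3 and 46.3 CPM in members and 60.6, 57.7, 65.4 and 52.6 in the other spots. The intervals of all 4 Chka ratios included 1. Acetyl groups for acetylcholine come from citrate, and 2 genes of this supply, named after their values were seen, were among the 65. Acly, which encodes ATP citrate lyase, was at 563, 573, 542 and 657 CPM against 169, 173, 138 and 159. Slc25a1, the mitochondrial citrate carrier, was at 106, 156, 101 and 226 CPM against 35.7, 49.1, 30.5 and 58.6.

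Of the neurotrophin genes, Ntrk2 was close to the other spots and Bdnf was low. Ntrk2, the receptor for brain-derived neurotrophic factor, had ratios of 1.13, 1.07, 1.22 and 1.02. Bdnf, the ligand, was at 7.49, 17.0, 9.90 and 11.7 CPM against 28.6, 49.7, 21.6 and 44.1. It was at least 2-fold lower in every set.

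Transcription factors of ventral forebrain origin were the next group. Nkx2-1, which specifies the medial ganglionic eminence and preoptic area, was at 26.8, 48.3, 32.2 and 51.7 CPM in members against 4.98, 12.8, 5.20 and 6.03. Lhx6, a factor of neurons from the medial ganglionic eminence, was at 53.4, 116, 77.6 and 63.7 CPM against 17.6, 21.8, 21.4 and 22.7. Gbx1, a homeobox gene known in basal forebrain cholinergic neurons, was sparse at 8.73, 14.0, 9.21 and 21.6 CPM, but its ratios were 12.1 (8.29 to 17.3), 9.45 (7.01 to 12.6), 8.98 (6.19 to 12.7) and 7.63 (5.78 to 9.96). These 3 of 9 listed factors were at least 2-fold higher in every set, as were 0.603% of all genes at the same filter.

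The other listed factors did not reach 2-fold in every set. Isl1, which works with Lhx8 in cholinergic fate, had ratios of 1.81, 1.53, 1.74 and 2.72. Gbx2, a thalamic and forebrain homeobox gene, was above the other spots in sets 2 and 3, with ratios of 6.12 and 8.79, and below them in sets 1 and 4, with 0.710 and 0.323. Zic1, a zinc-finger factor of the septum and other midline regions, was 2.10-fold higher in set 2, while its ratios in sets 1, 3 and 4 were 0.921, 0.972 and 1.08. The median log2 difference of the 9 factors was −0.12, 1.06, 0.75 and 0.11 in sets 1 to 4, so as a list they stood higher in sets 2 and 3 than in sets 1 and 4.

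Acetylcholine receptor genes went in different directions. Of 15 genes compared, Chrm5 and Chrna2 were at least 2-fold higher in every set and Chrm1 and Chrna5 at least 2-fold lower. Over all genes at the same filter, 0.603% were higher and 2.76% lower. Chrm2, the muscarinic receptor known as an autoreceptor on cholinergic neurons, was at 47.6, 36.1, 67.7 and 24.3 CPM in members and 25.7, 8.20, 18.0 and 10.4 in the other spots. It was higher in every set, with ratios from 1.85 to 4.40, and was not past 2-fold in set 1. Chrm1, the main postsynaptic muscarinic receptor of cortex and striatum, was at 8.53, 10.1, 8.75 and 17.1 CPM against 46.0, 85.6, 58.3 and 84.1. Chrm5 was low, at 7.69, 5.88, 7.37 and 8.12 CPM against 2.06, 1.69, 2.39 and 3.19.

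Among 14 peptide and peptide-receptor genes, the tachykinin receptors Tacr1 and Tacr3 were at least 2-fold higher in every set. The shares over all genes at the same filter were 0.603% higher and 2.76% lower. Tacr3, the receptor for neurokinin B, was at 27.2, 21.5, 43.3 and 14.4 CPM against 6.26, 3.46, 5.29 and 4.86. Tacr1, the receptor for substance P, was at 21.8, 18.3, 20.5 and 23.4 CPM against 6.03, 6.62, 6.80 and 5.30. Crhbp, Npy and Penk were at least 2-fold lower in every set, with Npy at 82.3, 91.5, 104 and 111 CPM against 314, 256, 212 and 349.5. Gal, a peptide of hypothalamic and some basal forebrain neurons, had ratios of 2.25, 0.894, 2.04 and 1.21, and the summed levels overlapped across sets. Of 19 hypothalamic and preoptic genes, 0 were 2-fold higher or lower in every set, with a median log2 difference of 0.47, and the same held for 6 genes of the lateral septum, with a median of −0.51. Of 7 thalamic genes, Ptpn3 was lower and 0 were higher.

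Other genes among the 15 with the largest median difference were of mixed kinds. Sncg, gamma-synuclein, was at 122, 174, 146 and 160 CPM against 19.0, 15.8, 12.6 and 19.8. These sums did not overlap between members and other spots. Ecel1, a membrane peptidase of neurons, was at 381, 359, 488 and 495 CPM against 51.4, 74.7, 64.3 and 52.2. Elfn1, a synaptic leucine-rich repeat protein of some interneurons, was at 168, 307, 212 and 232 CPM against 38.9, 60.7, 47.1 and 58.2. Agt, angiotensinogen, which the brain makes mainly in astrocytes, was at 320, 286, 321 and 353 CPM against 108, 53.4, 63.1 and 136. Others were Ndst4, Stk32b, Dgkk, Mab21l1, Igsf1 and Hspb8, with median log2 differences from 1.94 for Hspb8 to 2.42 for Ndst4.

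Members also held inhibitory neuron genes. Gad1 and Gad2, which make GABA, and Slc32a1, which loads it into vesicles, were higher in every set, with ratios of 1.30 to 1.97, 1.48 to 2.13 and 1.60 to 2.09. Of 14 genes of GABA projection neurons, Npas1, a marker of pallidal neurons, was at least 2-fold higher in every set, at 54.9, 101, 67.2 and 80.9 CPM against 15.03, 25.3, 14.1 and 25.0. The share of all genes higher at the same filter was 0.603%. Pvalb, a calcium-binding protein of fast-spiking neurons, was level with the other spots, with ratios of 1.01, 1.02, 0.835 and 1.15.

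Of 12 dopamine-related genes, Th, Slc18a2 and Drd5 were at least 2-fold higher in every set, as were 0.603% of all genes at the same filter. Th, tyrosine hydroxylase, was at 33.3, 30.8, 48.1 and 29.5 CPM against 9.90, 9.22, 8.14 and 13.0. Slc18a2, the vesicular monoamine transporter, was at 21.2, 14.4, 30.8 and 27.7 CPM against 5.12, 4.13, 8.96 and 3.60. Drd5, a dopamine receptor, was at 14.97, 9.73, 9.44 and 10.2 CPM against 4.87, 2.51, 2.91 and 4.30. Drd1 and Drd2, the receptors of striatal projection neurons, were lower, Drd2 at 26.0, 20.1, 16.6 and 19.2 CPM against 87.5, 115, 84.3 and 48.8. A low striatal score chose the members, so low Drd1 and Drd2 are read with that.

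Cortical and striatal genes were low. Slc17a7, the vesicular glutamate transporter of cortical neurons, was at 23.3, 8.92, 19.1 and 87.5 CPM in members against 1189, 1413, 1335 and 1193. The 3 habenula-rich spots held 172 of the 291 Slc17a7 counts of set 4, which stood at 37.0 CPM without them. Of 9 cortical excitatory genes 6 were at least 2-fold lower in every set and 0 higher, with a median log2 difference of −2.11. The share of all genes lower at the same filter was 2.76%. Of 15 striatal projection neuron genes 11 were lower and 0 higher, with a median of −2.00. The rule left out spots of high striatal score, so this list is read with that and is a description only. At a striatal limit of 1.2 in place of 0.8, 8 of its genes were lower. Among the 10 lowest genes, Neurod6 and Neurod2, factors of cortical excitatory neurons, were at 0.203 to 1.04 and 1.01 to 4.21 CPM in members, against 39.9 to 61.4 and 54.0 to 78.8 in the other spots. Of the 3 vesicular glutamate transporter genes, Slc17a7 alone passed 2-fold in every set. Slc17a6, the vesicular glutamate transporter of thalamus and hypothalamus, split the sets, with ratios of 0.901, 3.47, 2.79 and 0.547.

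Of 14 immediate early genes, which neurons switch on with activity, Fosb, Junb, Egr1, Egr2, Egr4, Arc and Nr4a1 were at least 2-fold lower in every set and 0 were higher. The share of all genes lower at the same filter was 2.76%. Egr1 was at 57.4, 60.0, 49.7 and 55.0 CPM in members against 276, 418, 280 and 296. Arc was at 43.9, 46.6, 20.7 and 65.5 CPM against 124, 400, 114 and 499. Members lay below the other spots in both genes in every set.

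**Figure D2:**
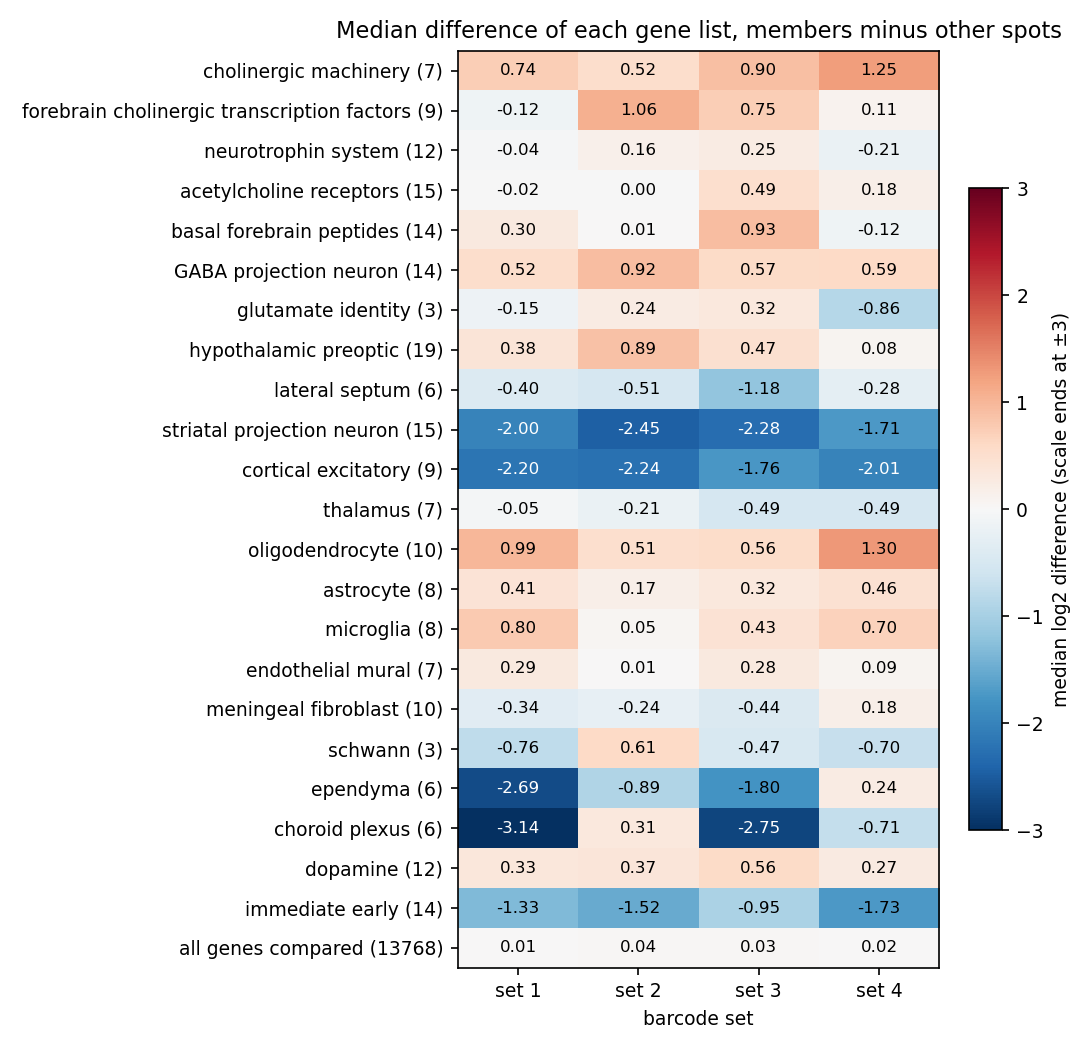
Median log2 difference of each gene list, members minus other spots, in each barcode set, with the number of genes compared in brackets. Striatal, cortical and immediate early lists lie at −0.95 or lower in all 4 sets, the oligodendrocyte list lies between 0.51 and 1.30, and all genes lie between 0.01 and 0.04. The rule itself left out spots of high striatal score, so the striatal list is read with that.

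Markers of other cell types moved with the members as follows. The summed level of 10 oligodendrocyte genes was 35983, 13496, 14164 and 30907 CPM in members and 17946, 9485, 9364 and 12576 in the other spots, higher in every set, though 0 of the 10 were 2-fold higher in all 4. Mbp, myelin basic protein, had ratios of 2.01, 1.46, 1.61 and 2.48. The summed level of 8 microglial genes was 887, 520.2, 669 and 729 CPM against 517, 481, 488 and 451. Astrocyte and vessel lists had median log2 differences of 0.34 and 0.15, with Agt as the only astrocyte gene past 2-fold in every set. Meningeal genes summed to 67.9 to 100.1 CPM in members against 94.2 to 146, and ependymal genes to 21.2 to 98.6 against 50.9 to 103. Choroid plexus genes summed to 186, 147, 96.9 and 102.5 CPM in members against 7660, 75.2, 6465 and 675, so set 2 alone was above its other spots. Most of the sum in members of set 2 came from Clic6 alone, whose levels are given below. Of 3 Schwann cell genes compared, Mal2 was at least 2-fold lower in every set, as were 2.76% of all genes at the same filter. None of the listed genes compared was at 0 in members, and the part of these cell types in the results was not tested.

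Celsr3, the gene altered in the heterozygous mice, was at 24.3 (20.1 to 29.2), 49.7 (43.7 to 56.3), 23.9 (19.6 to 29.0) and 31.0 (25.3 to 37.5) CPM in members of sets 1 to 4, with exact Poisson intervals. The other spots stood at 31.9, 46.7, 26.1 and 47.8 CPM. The ratio was 0.762 (0.629 to 0.915), 1.06 (0.933 to 1.21), 0.919 (0.749 to 1.12) and 0.648 (0.528 to 0.788), so members lay below the other spots in sets 1 and 4 and did not separate from them in sets 2 and 3. Celsr2, a related receptor, had ratios of 0.788 to 0.794 in the 4 sets. These levels were not used to tie a set to a genotype.

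The genes whose levels followed the cholinergic score most closely were ranked by Spearman correlation over kept spots below the striatal limit, which numbered 2326, 1972, 2515 and 2768. Chat led with a median rho of 0.42 over the sets, and rho ran from 0.39 to 0.48. Agt, Sparc, Isoc1, Igsf1, Serpine2, Slc6a11, Ap1s2, Abat and Ndrg2 followed, with medians from 0.41 down to 0.38. Sparc, a secreted matrix protein, and Slc6a11, a GABA transporter known from astrocytes, were also among the 65 genes. Slc6a11 was at 928, 872, 877 and 651 CPM in members against 372, 207, 215 and 295. The spots of a set share a library and differ in depth, so these correlations are descriptions, with no test.

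Members were set against 3 kinds of like spots. The first kind had the same cholinergic score of at least 1.2 but a striatal score of at least 0.8, and held 165 spots, with 50, 31, 67 and 17 in sets 1 to 4. Of 10085 genes, 349 (3.46%) were at least 2-fold higher in members in every set and 415 (4.12%) lower, and 8 of the 15 leading genes were among the 349. Chat was higher in members in set 3, and its intervals included 1 in sets 1, 2 and 4, with ratios of 1.06 (0.891 to 1.26), 0.824 (0.646 to 1.06), 1.73 (1.44 to 2.09) and 0.858 (0.627 to 1.2). Ngfr, a gene of the rule that both kinds share, was at 91.1, 187, 140 and 307 CPM in members and 3.74, 6.29, 2.03 and 84.5 in the striatal cholinergic spots. The 17 striatal cholinergic spots of set 4 were unlike those of the other sets in other genes too. Agt was at 76.6 CPM in them, against 6.29 to 14.1 in sets 1 to 3, and Sncg at 47.5 against 4.06 to 8.98. Ratios of set 4 are read with that.

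Lhx6, Nkx2-1, Zic1 and Gbx1, transcription factors of the ventral forebrain, stood higher in members than in striatal cholinergic spots, while Gbx2 and Isl1 of the same list did not do so in every set. Lhx6 was 4.77-fold (3.20 to 7.37), 6.13-fold (3.97 to 9.98), 9.17-fold (6.11 to 14.4) and 2.01-fold (1.13 to 3.95) higher. Nkx2-1 was 1.58-fold, 1.68-fold, 3.07-fold and 2.45-fold higher, and Zic1 1.28-fold, 2.46-fold, 2.10-fold and 2.48-fold, with every interval above 1. Gbx1 had 1, 2, 2 and 0 counts in the striatal cholinergic spots of sets 1 to 4, and its ratios in the first 3 sets were 21.0 (3.57 to 850), 7.79 (2.08 to 65.6) and 13.6 (3.53 to 116). The count of 0 in set 4 allows up to 7.92 CPM, against 21.6 CPM in members. Gbx2 had ratios of 2.57 (1.19 to 6.34), 1.34 (0.755 to 2.55), 2.72 (1.16 to 7.38) and 1.02 (0.315 to 5.28), so its intervals included 1 in sets 2 and 4. Ache was 1.49-fold, 1.62-fold, 1.75-fold and 1.39-fold higher. Prima1 was not higher in every set, with ratios of 0.877, 0.664 (0.544 to 0.814), 0.928 and 1.44 (1.08 to 1.97). Its intervals included 1 in sets 1 and 3. Ecel1 had ratios of 1.33, 1.06 (0.948 to 1.19), 2.04 and 1.25, and its interval included 1 in set 2.

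Tacr1 went the other way, at 0.346 (0.267 to 0.446), 0.344 (0.245 to 0.487), 0.329 (0.253 to 0.426) and 0.423 (0.258 to 0.721) times its level in striatal cholinergic spots. Tacr3 had ratios of 1.06, 0.772, 1.64 (1.25 to 2.16) and 0.683, and its interval lay above 1 in set 3 only. Isl1 had ratios of 0.733, 0.766, 0.705 and 0.787, and its interval lay below 1 in set 3 only. Striatal spots without the cholinergic markers, 2855 in number, differed from members in 626 genes that were higher (6.2%) and 558 that were lower (5.53%) of 10090, and 13 of the 15 leading genes were among the 626.

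The other kind was 1905 spots outside the members with a mean z of at least 1.2 over Hap1, Baiap3, Ahi1 and Resp18, genes known to be high in the hypothalamus. Members differed less from these, with 52 of 10194 genes (0.51%) at least 2-fold higher in every set and 81 (0.795%) lower, and 6 of the 15 leading genes among the 52. Chat was 47.6-fold (35.3 to 65.6), 22.6-fold (15.9 to 33.3), 42.4-fold (31.1 to 59.0) and 33.2-fold (24.8 to 45.2) higher in members. Prima1 was 13.1-fold, 8.73-fold, 15.1-fold and 18.5-fold higher. Agt and Th, by contrast, had ratios of 0.909 to 1.12 and 0.680 to 1.32. Gal was lower in members, at 0.501, 0.108, 0.273 and 0.290 times its level in the hypothalamic-marker spots, and Zic1 at 0.658, 0.618, 0.431 and 0.652 times. Nkx2-1 had ratios of 3.84, 0.729, 2.34 and 6.71 over these spots, with the interval below 1 in set 2 and above 1 in the other sets, and Gbx2 had ratios of 0.340, 1.91, 3.28 and 0.209, below 1 in sets 1 and 4.

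**Figure D3:**
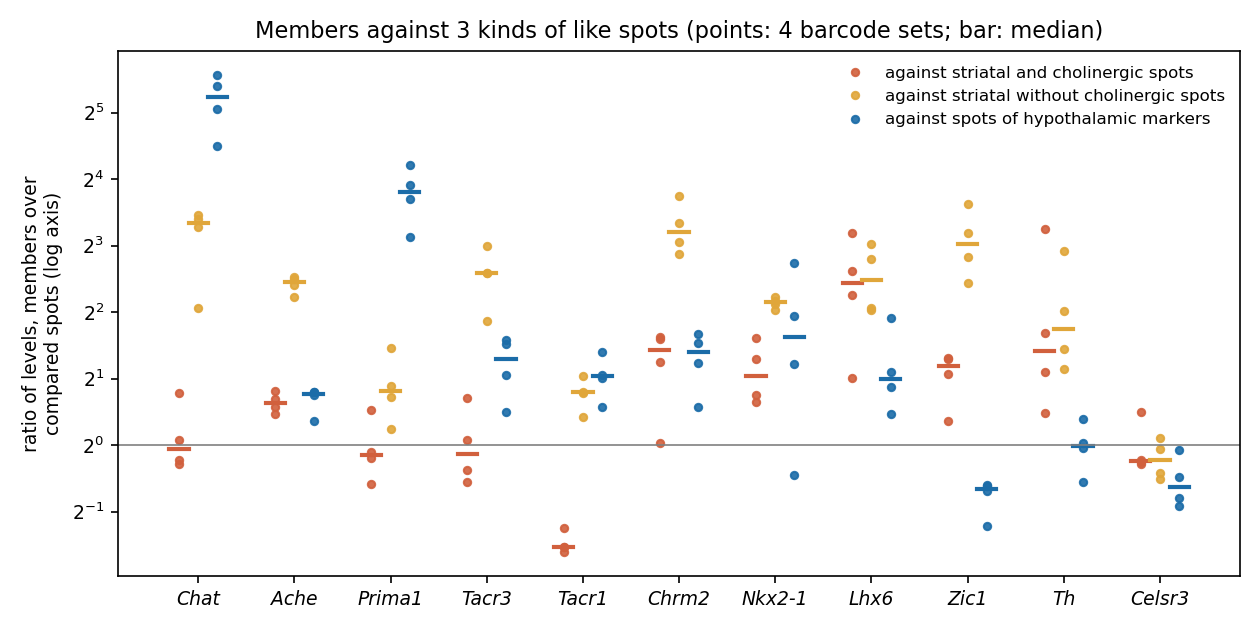
Ratio of levels, members over each of 3 kinds of like spots, for 11 genes on a log axis, with a point for each barcode set and a bar at the median. Chat lies at 0.824 to 1.73 against striatal cholinergic spots and at 4.17 or more against the other kinds, Lhx6 lies above 1 against all 3, and Tacr1 lies below 1 only against striatal cholinergic spots.

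The members were not uniform. Clustering of the 505 spots on 1000 variable genes without the rule genes, centred within sets, gave 8 sub-clusters, which are named by number and leading genes and are no cell types. Sub-cluster 1 had 99 spots led by Gm5741, Nwd2 and Syt9, but it held the 3 habenula-rich spots, and its other 96 spots were led by Oxt, Cck and Tac2. Sub-cluster 2 had 87 led by Spp1, Pvalb and Cyp26b1, and sub-cluster 3 had 85 led by Avp, Oxt and Cbln1. Sub-cluster 4 had 80 spots led by Tac2, Mal and Prima1, sub-cluster 5 had 64 led by Nefm, C1ql2 and Sstr1, and sub-cluster 6 had 54 with Pdyn and Adora2a among its leading genes. Sub-cluster 7 had 20 spots led by Klk6, Tmem63a and Sec14l5, and sub-cluster 8 had 16 led by Dlk1, Vwa5b1 and Irs4.

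Chat was found in every sub-cluster, at 62.6, 40.6, 116, 160, 76.2, 85.6, 37.1 and 31.0 CPM in sub-clusters 1 to 8. Sub-clusters 3 and 4 had the highest levels and sub-cluster 8 the lowest. Lhx6 was at 75.8 and 58.6 CPM in sub-clusters 3 and 4, against 79.8 and 82.0 in the other members. It was highest in sub-cluster 5, at 109 CPM, and lowest in sub-clusters 7 and 8, at 12.4 and 42.6, where Chat was low too. Sub-cluster 4 had the highest Chat and Ecel1, at 160 and 790.4 CPM, beside Ecel1 at 370.4 CPM in the other members. Sub-cluster 2 held parvalbumin and microglial genes, with Pvalb at 623 CPM against 174 in the other members and C1qa, a complement gene of microglia, at 233 against 106. Sub-cluster 7 was rich in myelin genes and shallow, with Mbp at 39464 CPM and a median of 16279 counts per spot, and its Pvalb level was higher still, at 707 CPM against 228. Sub-clusters 1, 3 and 8 had genes known from the hypothalamus among their leading genes. Avp, the vasopressin precursor, was at 320 CPM against 30.6 in the other members for sub-cluster 3, and Baiap3 at 1178 against 168 for sub-cluster 8. Oxt, a gene of the hypothalamic list, led the 96 spots of sub-cluster 1 that were not habenula-rich. It stood at 188 CPM over all 99 spots of sub-cluster 1, against 55.5 in the other members. Sub-cluster 6 had striatal projection neuron genes in the lead although its spots were below the striatal limit.

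The sub-clusters were spread unevenly over the sets. Sub-clusters 1 and 4 held 32 and 21 spots in set 1, 6 and 1 in set 2, 12 and 23 in set 3, and 49 and 35 in set 4. Sub-cluster 5 held 29 spots in each of sets 2 and 3 but 4 and 2 in sets 1 and 4. Sub-cluster 8 had 15 of its 16 spots in set 2 and held Zic1 at 813 CPM, against 152 in the other members. Sub-cluster 7 was found in sets 1 and 4 alone, with 6 and 14 spots. Sub-clusters 2 and 6 were in all 4 sets, with 13 to 28 and 11 to 16 spots. Whether sections were cut at different levels of the brain is not given in the sources used here, and section and mouse cannot be told apart. The sub-clusters depend on centring within sets: without it there were 6, and their adjusted Rand index against the 8, a measure of like grouping that is 1 for the same grouping and near 0 for unrelated ones, was 0.196.

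**Figure D4:**
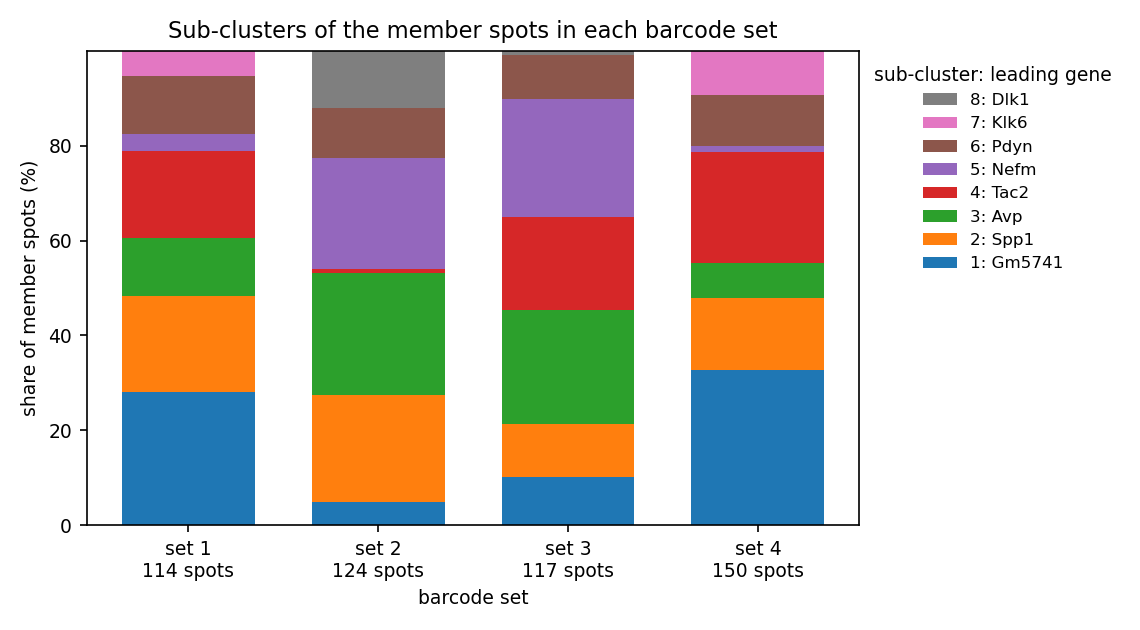
Share of member spots in each of 8 sub-clusters, in percent, for the 4 barcode sets, with the number of members under each bar and the leading gene of each sub-cluster in the key, which for sub-cluster 1 rests on the 3 habenula-rich spots. Sub-cluster 5 fills 23.4% and 24.8% of sets 2 and 3 and 3.51% and 1.33% of sets 1 and 4, and sub-cluster 4 fills 18.4%, 0.806%, 19.7% and 23.3% of sets 1 to 4.

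Genes also varied between the sets within the members. Sets 1 and 3 were at least 2-fold apart in 165 of 10123 genes (1.63%), and sets 2 and 4 in 181 (1.79%). Sets 1 and 2 were apart in 903 (8.92%), sets 1 and 4 in 766 (7.57%), sets 3 and 4 in 671 (6.63%) and sets 2 and 3 in 476 (4.7%). In the other spots, sets 1 and 3 and sets 2 and 4 were again the nearest pairs, with 49 (0.483%) and 81 (0.799%) of 10139 genes, while sets 1 and 2 had 693 (6.83%), sets 1 and 4 had 744 (7.34%), sets 2 and 3 had 421 (4.15%) and sets 3 and 4 had 565 (5.57%). The pairs do not identify mice or genotypes.

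The split of these pair differences depended on the scaling and on the filter on low genes. Scaling changed its size, and only the filter changed which set was higher in most genes. Of the genes apart between sets 1 and 4, 64.9% were higher in set 1 when scaled by total counts, 68.5% by relative log expression (RLE) and 87.9% by the trimmed mean of M values (TMM). With no filter on low genes the split turned round, and 30.6% were higher in set 1. Between sets 1 and 2, 68.7% were higher in set 1 by total counts, 65.6% by RLE and 79.0% by TMM. Set 2 was the higher of sets 2 and 4 in 17.1% and 34.8% by total counts and TMM. Set 3 was the higher of sets 3 and 4 in 54.7% by total counts, 56.5% by RLE, 80.2% by TMM, 47.2% at a filter of 50 CPM and 24.3% with no filter. Between sets 2 and 3, 33.8% were higher in set 2 as reported and 51.4% with no filter. The split between sets 1 and 3 was 84.2% by total counts, 85.1% by TMM and 68.8% with no filter. The TMM factors of the members were 0.965, 1.02, 0.976 and 1.11 in sets 1 to 4.

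The genes that ranged most widely over the sets in members, relative to the other spots, included Tac2, which encodes neurokinin B, the ligand of Tacr3. It was at 348, 17.8, 122 and 372 CPM in members and 32.1, 43.3, 66.3 and 76.3 in the other spots, so set 2 alone lay below its other spots. Its counts were concentrated in few spots, and the tenth of members with the most Tac2 held 62.4%, 58.0%, 60.2% and 66.1% of them. Gm5741 was at 0, 0.608, 0.921 and 62.2 CPM, and Nwd2 at 8.94, 8.92, 10.8 and 50.8 CPM, both high in set 4 alone. The 3 habenula-rich spots held nearly all of that: without them Gm5741 was at 0.621 CPM and Nwd2 at 8.39 in set 4, and Scube1 went from 21.9 to 4.66. Tac2 had 342 of its 1239 counts in set 4 in these spots and stood at 279 CPM without them. The hemoglobin genes Hbb-bs and Hba-a2, signs of blood, were at 105 and 89.0 CPM in set 4 and at most 13.8 and 10.3 in the other sets. Clic6, Scube1, Mob3b and Fbxo32 were the others, with Clic6, a gene of choroid plexus, at 17.3, 125, 67.0 and 34.6 CPM.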

How the data were processed

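The deposited file holds raw counts for 19465 genes in 12602 spots. Space Ranger and Seurat are named in the submitters' processing notes, without versions. The genome build, probe set and spot filter are not given in the sources used here. Values were checked to be whole numbers, and 1 spot with fewer than 500 counts was left out. No column could be tied to a sample, so the genotype comparison planned with edgeR was not run.

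Levels are counts summed over spots per 1000000 (CPM). Shares have exact Clopper-Pearson, levels exact Poisson and ratios exact conditional binomial intervals (scipy 1.17.1). A difference of at least 1 in log2(CPM + 1) in every set counts as 2-fold, which understates low genes. Scaling factors (TMM, RLE) were computed with edgeR 4.0.16. Sub-clusters came from 20 components, 15 neighbours and Leiden at resolution 0.5 (scanpy 1.11.5). The scripts were tested on simulated data.

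Named genes are those of the lists, the 15 highest, the 10 lowest, the 10 of widest range over sets, Celsr3, the 10 most like the score, and the leading genes of sub-clusters. Members and lists were chosen with earlier results of these data known. Counts of different genes are not on 1 scale, since probes differ. Promoter windows are from RefSeq. Some items are not reported here.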

Additional observations from a re-analysis of the deposited data

How the results depend on the processing

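No paired analysis was possible because the columns carry no replicate number or sample name. The score threshold moved the share of members: at 1.0 it was 5.59% in set 2 and 4.07% in set 3, and at 1.5 it was 3.04%, 3.35% and 3.83% in sets 1, 2 and 4. Dropping a marker from the score moved set 2, to 3.17% without Lhx8, 5.48% without Ngfr, 6.05% without Slc18a3 and 6.55% without Slc5a7, which also gave 5.43% in set 4. At a filter of 50 CPM, 26 genes were higher and 173 lower in every set, all of them among those reported, since fewer genes were compared. Under the other settings 45 to 83 were higher and 267 to 380 lower. Leaving each set in turn out of both the z-scores and the comparison gave 64 to 82 and 326 to 362. A gene then had to pass in the remaining sets only, which by itself can raise these counts. Genes apart between sets 1 and 2, 1 and 3, 1 and 4, 2 and 3, 2 and 4, and 3 and 4 numbered 1555, 426, 2282, 974, 955 and 2096 with no filter and 327, 79, 246, 155, 74 and 250 at 50 CPM. A pseudocount of 5 CPM gave 502 for sets 1 and 4 and 296 for sets 2 and 3. Resolution 0.3 gave 4 sub-clusters, with an adjusted Rand index of 0.510 against those reported, 0.8 gave 9 with 0.914, and no centring gave 6 with 0.196. With no filter on low genes the direction of the differences between sets 1 and 4 and sets 3 and 4 turned round, to 30.6% and 24.3% higher in sets 1 and 3. Leaving out the 3 habenula-rich spots was chosen after seeing the data. Of the 37 named genes tested, those with the same direction in all 4 sets kept the sign of their median log2 difference under each choice of spots and each scaling. Celsr3 and Gal, whose direction differed between sets, could not be counted as reversed. Single genes were not read again under the other gene filters or the other pseudocount. Depth limits set 4 most, where members had the fewest counts.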
